A study of Mus musculus with 12 samples.

Results

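Cholesterol synthesis genes were followed in type 3 innate lymphoid cells (ILC3s) of the small intestine. A list of 7 genes was taken by symbol from the 23284 genes of the expression table, and all 7 were found: Hmgcs1, Idi1, Fdps, Sqle, Cyp51, Sc4mol (the older symbol of Msmo1) and Insig1. The list was chosen with earlier results of these data known. RNA-seq had been made from ILC3s sorted from the intraepithelial layer (IEL) or the lamina propria (LP) of HR-1 mice, a hairless strain, at 18 weeks of age. PA milk mice had been born to mothers on the normal diet and swapped after birth to mothers on a chow with added palmitic acid. Normal-milk mice (ND) had been suckled by mothers on the chow alone, and no swap is described for them. Both ate the normal diet after weaning. There were 4 groups (PA milk IEL, ND IEL, PA milk LP and ND LP) with 3 libraries each, 12 in all. The labels name no allele, transgene or drug for any group. The sort was described as lineage-negative, Thy1.2+, CD25+ and Nrp1+, with CD4+ as a further gate in one place and CD45+ in another. Neither the labels nor the methods say how many mice gave each library, or whether same-numbered IEL and LP libraries share mice. The p-values therefore measure only the spread between these libraries, which may be technical in part.

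Cholesterol is built from acetyl-CoA through mevalonate, the isoprenoids, squalene and lanosterol. When sterols in the endoplasmic reticulum are scarce, the escort protein SCAP carries SREBP2 to the Golgi, where it is cut and then switches on the genes of the pathway and of lipoprotein uptake. When sterols are plentiful, INSIG proteins hold SCAP back. In lymphocytes the pathway feeds membrane growth, and oxysterols made from cholesterol guide the movement of cells.

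Values are FPKM, fragments per length of transcript, meant for comparing levels between genes as well as between libraries. For the 7 genes they kept a near constant ratio to the deposited scaled counts. Libraries were thus scaled by a size factor, a number for each library, and not by their sequenced fragment total. Library size came to 8.75 to 14.6 M reads (M, 1e6) when worked out from the smallest steps of the values. Despite this depth the number of genes at 1 FPKM or more was 4390 in PA milk IEL replicate 2 and 5637 in PA milk LP replicate 2, against 7863 to 11378 in the other 10 libraries. Of the 12502 genes tested, 65.2% and 55.8% were under 1 FPKM in these 2 libraries, 38.3% in ND IEL replicate 2, 34.0% in PA milk LP replicate 1 and 13.5% to 25.2% elsewhere. A floor of 3 reads stood at 0.0466 to 0.293 FPKM for the 7 genes, and it covers counting error only, because amplified reads without molecular identifiers are not independent molecules. Of the 84 values (7 genes in 12 libraries), 9 lay at or under that floor, and 8 of the 9 were in those 2 libraries. For the 7 genes, groups with a value of 0 are therefore given library by library, since a listed 0 may be a failed estimate. For other genes some such groups are given only as ranges or fold changes.

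Markers of the sort and of other cells were read in the same libraries. Of 14 epithelial markers, 10 to 14 were at 1 FPKM or more in every library. Their summed level was 5005 to 57846 FPKM in PA milk IEL, 24115 to 93275 in ND IEL, 356 to 1829 in PA milk LP and 2849 to 5903 in ND LP. Goblet and Paneth cell markers summed to 227 to 2265 FPKM in PA milk LP (3 to 9 genes at 1 FPKM or more) and to 2596 to 29453 in ND LP (7 to 9 genes). In IEL they summed to 172 to 454 FPKM in PA milk (2 to 7 genes) and to 514 to 7618 in ND (5 to 9 genes), so that every PA milk library was lower there too. The 14 ILC3 and sort markers summed to 210 to 449 FPKM in PA milk LP (4 to 11 genes) and to 703 to 5412 in ND LP (10 to 14 genes). In IEL these markers overlapped between the diets, at 353 to 1880 FPKM in PA milk (2 to 12 genes) and 333 to 641 in ND (8 to 14 genes). In LP all 3 sums were thus lower in every PA milk LP library than in every ND LP library, as were several sterol genes, and their part in the results on those genes was not tested. Sums of B and plasma cell, T cell, myeloid and stromal markers overlapped between the diets in LP, and Pax5 of the B cell list was at 0 in every library. In bulk RNA, fewer cells of a type and less RNA per cell cannot be told apart.

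The 7 genes lie on 5 chromosomes. On GRCm38 with GENCODE vM21, Hmgcs1 is at chr13:119690379-119708260 on the plus strand, Idi1 at chr13:8885501-8892451 (plus), Fdps at chr3:89093588-89101959 (minus), Sqle at chr15:59315077-59331192 (plus), Cyp51 at chr5:4081145-4104746 (minus), Sc4mol at chr8:64718139-64733792 (minus) and Insig1 at chr5:28071363-28078662 (plus). Fdps shares 7512 bases with Gm43738 on the same strand, Hmgcs1 shares 6190 with the antisense gene Gm48342, Idi1 shares 323 with Gm48574, and Cyp51 shares 166 with Akap9 on the other strand. The use of strand in counting is not given in the sources used here, so reads from the shared stretches could come from either gene.

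Promoters are shown for the letters through which SREBP2 and its partners are known to act. RefSeq promoters (GRCm38.p6, 250 bases before to 50 after the start site) were found for 5 of the 7 genes, and none was printed for Fdps and Sqle. The Hmgcs1 promoter is shown up to the start site (chr13:119690101-119690350, plus strand) because it was the one of the 5 with the sterol regulatory element form TCACNCCAC. For the other 4 a stretch of 30 bases around a CCAAT box, the NF-Y motif, is shown, at chr13:8885579-8885608 (plus) for Idi1, chr8:64733617-64733646 (minus) for Sc4mol, chr5:4104710-4104739 (minus) for Cyp51 and chr5:28071183-28071212 (plus) for Insig1. Capitals mark TCACNCCAC, CCAAT or the Sp1 motif GGGCGG, on either strand.
Hmgcs1: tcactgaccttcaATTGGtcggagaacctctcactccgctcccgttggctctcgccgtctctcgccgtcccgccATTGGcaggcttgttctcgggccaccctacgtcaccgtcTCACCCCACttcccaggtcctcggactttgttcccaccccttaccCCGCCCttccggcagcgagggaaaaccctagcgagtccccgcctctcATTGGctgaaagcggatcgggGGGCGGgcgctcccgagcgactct
Idi1: ggtccaaggtgccATTGGctggcgaccgac
Sc4mol: ggagtgGGGCGGaCCAATtacgacaggcga
Cyp51: ccgctgtccgccaCCAATctggtcctgaga
Insig1: CCGCCCtcctcccATTGGctccggcggcct
In Hmgcs1 the sterol element form lay from base -137 to base -129, counted from the start site. It was in 408 of the 32851 mouse promoters of the table (1.24%). CCAAT was in all 5 promoters and in 37.4% of the table, and GGGCGG was in all 5 and in 35.7%. The motifs overlap in none of the shown stretches. Other forms of the sterol element were not searched for in the 5 promoters. A match describes letters and is not a bound site.

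The genes were well expressed where they were detected. By the median over 12 libraries, Fdps (farnesyl diphosphate synthase) came first at 139.5 FPKM, above 93.9% of the tested genes, and Sc4mol (the sterol C4-methyl oxidase) followed at 81.1 FPKM, above 89.6%. Idi1 at 36.8, Hmgcs1 at 36.2, Sqle at 33.4, Insig1 at 32.4 and Cyp51 at 23.1 FPKM were close to one another, and their ranges over libraries overlapped throughout. In sum over the 7 genes, PA milk LP held 80.4, 96.1 and 261 FPKM and ND LP 515, 338 and 514. The 3 PA milk LP sums were below all others, since PA milk IEL held 324, 867 and 595 and ND IEL 692, 334 and 626.

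**Figure D1:**
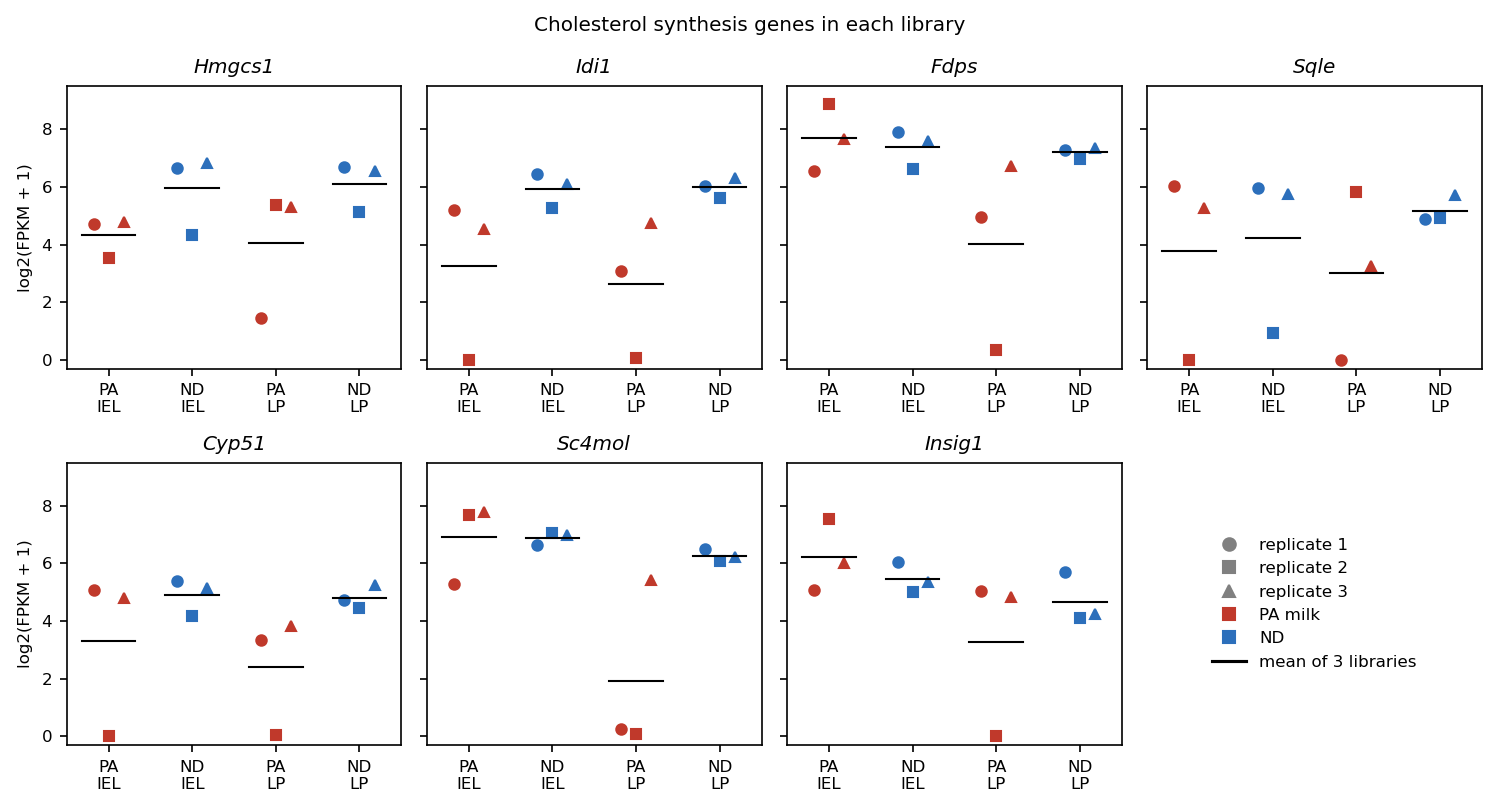
Level of each of the 7 genes as log2(FPKM + 1) in each library, by group (x axis; red PA milk, blue ND; symbols give the replicate number, bars the mean of 3 libraries). The PA milk LP points of Idi1, Fdps, Cyp51 and Sc4mol lie below every ND LP point, and the squares of PA milk replicate 2 lie at or near 0 for Idi1 and Cyp51 in both layers.

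The first question was whether PA milk went with another level of these genes in LP. All 7 genes were lower on average in PA milk LP than in ND LP, with a median log2 fold change of -2.39 against -0.36 for all genes tested, of which 62.2% were lower. None of the 7, and 0 of the 12502 genes (0%), passed the threshold of limma (adjusted p under 0.05), where 588 genes had an unadjusted p under 0.05, 3 of them among the 7. For Fdps, Idi1, Sc4mol and Cyp51, 4 of the 7, every PA milk LP library was below every ND LP library. That held in this direction for 6.6% of all genes, and the opposite, with every PA milk library above, for 2.97% of all genes and for none of the 7. Since the 7 were chosen with earlier results of these data known, setting them against all genes is a description and not a test.

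Hmgcs1 encodes HMG-CoA synthase, an early enzyme of the mevalonate steps. It was at 1.75, 40.5 and 38.4 FPKM in PA milk LP and at 101, 33.9 and 91.9 in ND LP (75.8 ± 36.5, SD, n = 3). One PA milk library was far below the rest, and the other 2 lay above the lowest ND library, so the groups overlapped. The log2 fold change of Hmgcs1 was -2.07 ± 1.13 (SE; limma adjusted p = 0.979).

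Idi1 encodes the isomerase that interconverts the isoprenoid building blocks. Its levels were 7.38, 0.0343 and 26.0 FPKM in PA milk LP and 63.6, 47.9 and 78.8 in ND LP (63.4 ± 15.5, SD, n = 3). The groups did not overlap. On the log2 scale the difference was -3.36 ± 1.39 (limma unadjusted p = 0.0283, adjusted p = 0.979), and without the sparse PA milk LP replicate 2 it was -2.07.

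Fdps makes farnesyl diphosphate, the last intermediate shared by sterols, dolichol and prenylated proteins. PA milk LP held 29.9, 0.264 and 106 FPKM and ND LP 155, 124 and 164 (148 ± 21.2, SD, n = 3). Its log2 fold change was -3.20 ± 1.18 (limma unadjusted p = 0.0160, adjusted p = 0.979) and was -1.36 without PA milk LP replicate 2. The groups did not overlap, but with libraries scaled to 24 genes common to leukocytes they did.

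Sqle encodes squalene epoxidase, which oxidizes squalene on the way to lanosterol. It was listed at 0, 55.2 and 8.64 FPKM in PA milk LP and at 28.9, 29.3 and 51.6 in ND LP (36.6 ± 12.98, SD, n = 3). The PA milk libraries thus spanned the whole range of ND, the sparse replicate 2 being the highest of all 6, and the log2 fold change was -2.15 ± 1.78 (limma adjusted p = 0.979). Without that replicate it was -3.55, and the groups no longer overlapped.

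Cyp51 encodes lanosterol 14-demethylase. Levels of 9.22, 0.0440 and 13.1 FPKM in PA milk LP stood against 25.4, 20.7 and 36.8 in ND LP (27.6 ± 8.27, SD, n = 3). No PA milk library reached the ND range. The log2 fold change of Cyp51 was -2.39 ± 1.40 (limma adjusted p = 0.979), and -1.22 without replicate 2 of PA milk LP.

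Sc4mol removes methyl groups at carbon 4 after the Cyp51 step. PA milk LP libraries were at 0.193, 0.0564 and 42.3 FPKM, and ND LP libraries at 89.1, 66.0 and 73.1 (76.1 ± 11.8, SD, n = 3). The first and second PA milk libraries were near the floor and the third was below all ND libraries. This was the largest difference of the 7 in LP, with a log2 fold change of -4.33 ± 1.21 (limma unadjusted p = 0.00259, adjusted p = 0.925). Over the alternative settings the adjusted p ranged from 0.0282 to 1. It passed the threshold when PA milk LP replicate 3 was left out, with a log2 fold change of -6.09 (limma adjusted p = 0.0282), and was -3.41 without replicate 2. Replicate 3 had the most genes at 1 FPKM or more of all libraries (11378). The fit without it keeps replicates 1 and 2 of PA milk LP (8406 and 5637 genes), where Sc4mol had 4 reads and 1 read.

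Insig1, the sterol sensor that retains SCAP and is itself an SREBP target, went with the others least. It was at 31.9, 0 and 27.3 FPKM in PA milk LP and at 51.0, 16.1 and 17.9 in ND LP (28.3 ± 19.7, SD, n = 3). Apart from the listed 0 of replicate 2, the PA milk values lay inside the ND range. The log2 fold change was -1.39 ± 1.24 (limma adjusted p = 0.979), and without replicate 2 it was 0.25.

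With 3 libraries against 3, the two-sided exact permutation test cannot go below p = 0.1, the value it gave for Fdps, Idi1, Sc4mol and Cyp51. For Hmgcs1, Sqle and Insig1 the exact permutation p was 0.3, 0.4 and 0.7. Without PA milk LP replicate 2, 5 of the 7 genes (Sqle besides those 4) had every PA milk LP library below every ND LP library, against 10.3% of all genes, and the median log2 fold change of the 7 was -2.07 against -0.05 for all genes. Leaving out a library cannot make groups overlap that did not, so only Sqle was free to change this count.

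**Figure D2:**
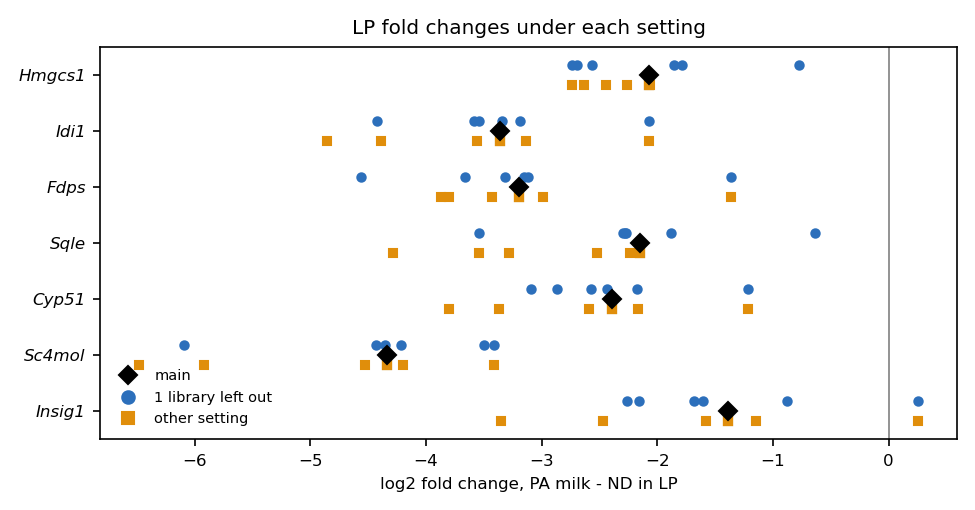
log2 fold change of each gene for PA milk against ND in LP (x axis) in the main fit (black diamonds), with 1 library left out (blue circles) and under the other settings (orange squares). For 6 of the 7 genes every setting stays below 0, and Insig1 crosses to 0.25 without PA milk LP replicate 2.

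The neighbours of the 7 genes were taken from pathway lists that held 42 further genes, of which 41 were tested. The counts and medians by list include the 7 genes, so they partly repeat the values above. Among the mevalonate steps, 7 of 9 tested genes were lower in PA milk LP, where 62.2% of all genes were lower. Their median log2 fold change was -1.97. Of the 9, 5 lay below ND without overlap, with Idi1 and Fdps among them, as 6.6% of all genes did. Of 12 squalene and sterol genes 10 were lower, with a median of -1.62, and 4 did not overlap, with Cyp51 and Sc4mol among them. Genes of SREBP control (5 of 6 lower, median -1.21), of uptake and transport (5 of 9, median -0.69) and of LXR, efflux, esters and oxysterols (8 of 12, median -0.26) complete the lists, against a median of -0.36 over all genes. No gene of any list passed the limma threshold in LP. Among the 41 other genes, 9 were lower without overlap (Mvk, Ggps1, Fdft1, Nsdhl, Stard4 and Abcg8 among them) and 1 was higher (Nr1h2), against 6.6% and 2.97% of all genes. Abcg8 was hardly detected in LP, at 0 in every PA milk library and at 0.0209, 0.0229 and 0.307 FPKM in ND. Its log2 fold change was only -0.15, so its place in these counts says little about its level. With the leukocyte scaling, where 4.75% of all genes were lower without overlap, the 9 became 6, of which 5 (Mvk, Fdft1 and Abcg8 among them) were also among the 9.

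Mvk, mevalonate kinase, was listed at 0 in replicates 1 and 2 and at 7.94 FPKM in replicate 3 of PA milk LP, against 35.4, 41.8 and 23.4 in ND LP. Its difference was -4.02 ± 1.49 (limma unadjusted p = 0.0159, adjusted p = 0.979). This gene of the mevalonate steps was thus lower in each PA milk LP library than in each ND LP library. Srebf2 itself, which encodes SREBP2, was at 33.3, 109 and 21.3 FPKM in PA milk LP and at 18.7, 33.2 and 30.3 in ND LP, overlapping and with a log2 fold change of 0.66 ± 0.89 (limma adjusted p = 0.979). Gpr183, the receptor for the oxysterol made by Ch25h and Cyp7b1, was at 0.0854, 0.0667 and 59.7 FPKM against 47.5, 166 and 74.0, a difference of -4.36 ± 1.72 (limma unadjusted p = 0.0220, adjusted p = 0.979). Ch25h was at 34.6, 0 and 17.5 FPKM in PA milk LP and at 11.3, 0 and 13.6 in ND LP.

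**Figure D3:**
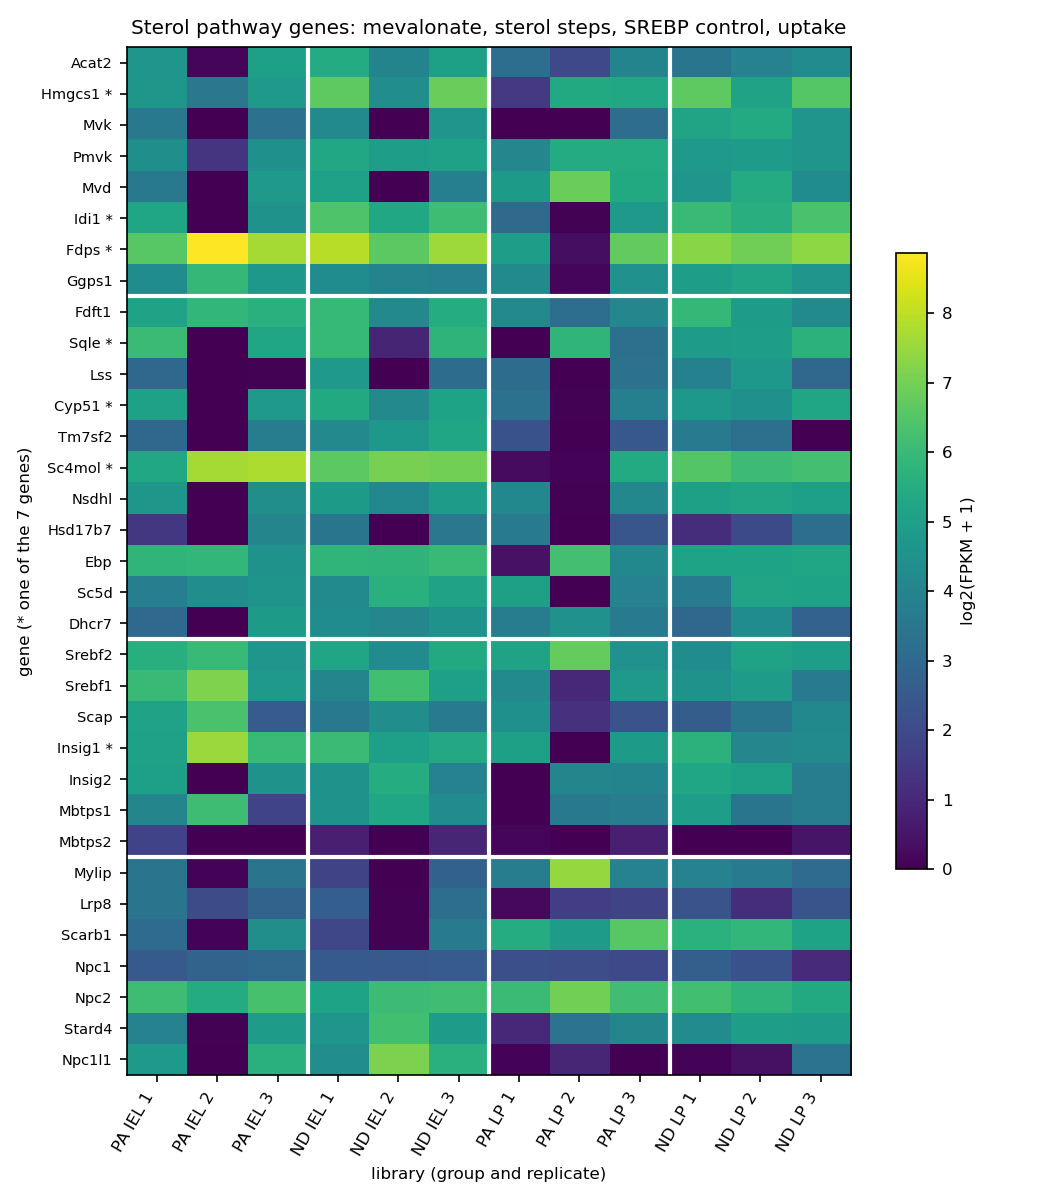
Heatmap of log2(FPKM + 1) (colour) for the genes of the mevalonate, squalene and sterol, SREBP control and uptake lists that are described here (rows; asterisks mark the 7 genes) in the 12 libraries (columns, by group and replicate). Dark cells pile up in PA milk IEL replicate 2 and PA milk LP replicate 2, the 2 libraries with 4390 and 5637 genes at 1 FPKM or more.

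In IEL the same diets gave a mixed picture for the 7 genes. PA milk IEL was lower than ND IEL on average for 4 of the 7 and higher for 3, while 60.5% of all genes were lower. The median log2 fold change was -0.45 for the 7 against -0.30 over all genes. Fdps and Sc4mol, higher here, turned lower with either other scaling. None of the 7 and none of all genes (0%) passed the limma threshold, and 447 genes had an unadjusted p under 0.05, none of the 7 among them. Idi1 alone of the 7 had every PA milk library below every ND library, as 5.22% of all genes did, and with upper quartile scaling it did not. The goblet and Paneth marker sum was also lower in every PA milk IEL library than in every ND IEL library, and its part in this difference was not tested. No gene of the 7 had every PA milk library above, against 2.97% of all genes.

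Idi1 was at 35.9, 0 and 22.2 FPKM in PA milk IEL and at 85.7, 37.8 and 68.3 in ND IEL (63.9 ± 24.2, SD, n = 3). Its log2 fold change was -2.70 ± 1.39 (limma unadjusted p = 0.0708, adjusted p = 0.947; exact permutation p = 0.1), and -1.07 without PA milk IEL replicate 2. Hmgcs1 was at 25.1, 10.5 and 26.3 FPKM (20.7 ± 8.79, SD, n = 3) against 101, 19.1 and 114 (77.9 ± 51.3, SD, n = 3), a difference of -1.61 ± 1.13 (limma adjusted p = 0.947). Here ND replicate 2, the sparsest of its group, lay among the PA milk libraries while the other 2 ND libraries stood apart from them.

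Cyp51 was at 32.9, 0 and 26.8 FPKM in PA milk IEL and at 41.0, 16.9 and 34.6 in ND IEL, a difference of -1.61 ± 1.40 (limma adjusted p = 0.947) that became 0.038 without PA milk IEL replicate 2. Sqle was at 64.9, 0 and 37.4 FPKM against 61.2, 0.8902 and 53.3, a difference of -0.45 ± 1.78 (limma adjusted p = 1) that became 1.44 without the same library. The replicates numbered 2 were the low ones in both diets for Sqle, and both groups otherwise shared one range.

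Fdps was at 93.7, 467 and 202 FPKM in PA milk IEL (254 ± 192, SD, n = 3) and at 239, 97.5 and 190 in ND IEL (176 ± 71.9, SD, n = 3). Sc4mol was at 38.0, 204 and 217 FPKM (153 ± 99.8, SD, n = 3) against 99.3, 131 and 126 (119 ± 17.0, SD, n = 3). Insig1 was at 32.9, 185 and 63.1 FPKM (93.7 ± 80.7, SD, n = 3) against 64.6, 31.4 and 39.6 (45.2 ± 17.3, SD, n = 3). The PA milk libraries of Fdps and Sc4mol lay on both sides of the ND libraries, and those of Insig1 lay inside or above the ND range. The log2 fold changes were 0.33 ± 1.18, 0.02 ± 1.21 and 0.74 ± 1.24 (limma adjusted p = 1, 1 and 0.986).

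Of the pathway lists in IEL, 7 of 9 mevalonate genes (median -1.09) and 10 of 12 squalene and sterol genes (median -1.17) were lower in PA milk, as were 2 of 6 genes of SREBP control (median 0.59), 4 of 9 of uptake (median 0.16) and 9 of 12 of the LXR list (median -0.12). None of these genes passed the limma threshold. The list counts include the 7 genes here too, and 60.5% of all genes were lower in IEL, with a median of -0.30. Among the 41 other genes, 2 were lower without overlap, Pmvk and Tm7sf2, and 1 was higher, Ggps1, which is near the 5.22% and 2.97% of all genes. Srebf2 was at 46.7, 62.1 and 23.6 FPKM in PA milk IEL and at 36.2, 18.3 and 40.6 in ND IEL, and overlapped between the diets. Ch25h was at or under the floor in all 6 IEL libraries.

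**Figure D4:**
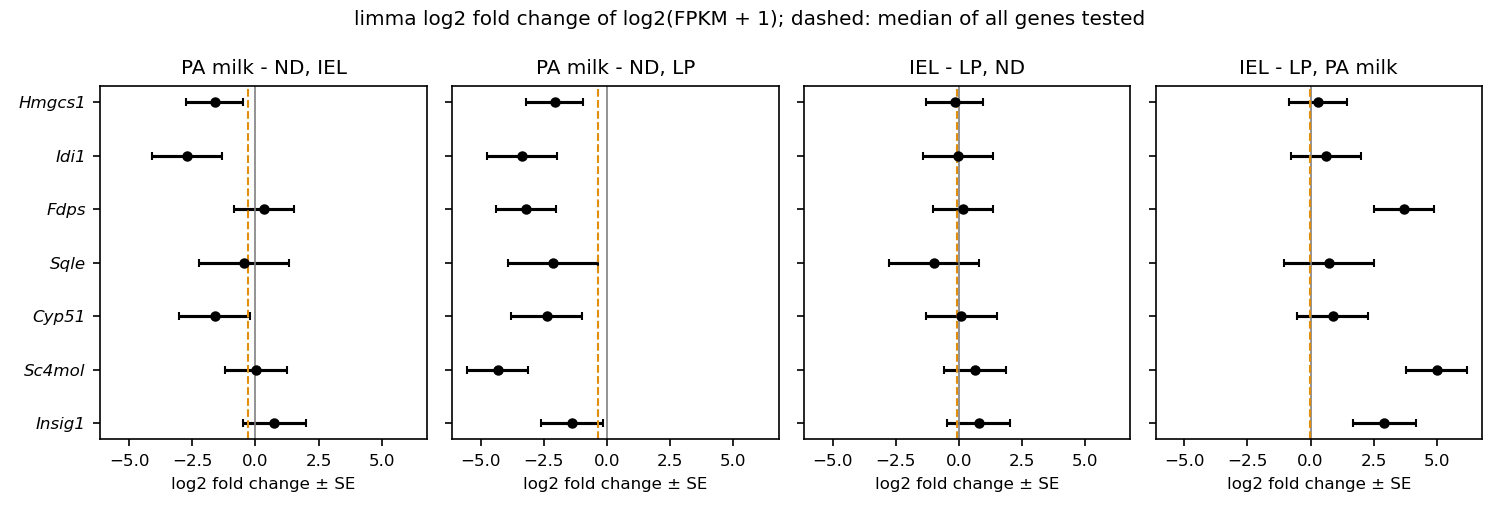
limma log2 fold change of log2(FPKM + 1) with its SE (x axis) for each gene in the 4 comparisons of groups. The dashed line is the median of all genes tested, and in the panel for LP all 7 points lie to its left, while in IEL they lie on both sides.

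Whether the diets differed more in LP than in IEL was tested as the difference of the 2 effects. It was negative for all 7 genes, with a median of -1.71 on the log2 scale against -0.03 over all genes, and neither any of the 7 nor any of all genes (0%) passed the limma threshold, with 292 genes at an unadjusted p under 0.05. Sc4mol had the largest difference, -4.35 ± 1.72 (limma unadjusted p = 0.0221, adjusted p = 1), followed by Fdps with -3.53 ± 1.68 (limma unadjusted p = 0.0517, adjusted p = 1). For Insig1 it was -2.13 ± 1.76, for Sqle -1.71 ± 2.52, for Cyp51 -0.78 ± 1.98, for Idi1 -0.66 ± 1.97 and for Hmgcs1 -0.46 ± 1.60. Those of Idi1 and Cyp51 turned positive without PA milk LP replicate 2 (0.62 and 0.39), and that of Insig1 without both sparse libraries (0.18).

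Between the layers, the ND groups had like levels of the 7 genes. The log2 fold changes of IEL against LP ran from -0.97 (Sqle) to 0.79 (Insig1) in ND, with a median of 0.10 against -0.09 over all genes, and 0 of the 7 passed limma, where 0.032% of all genes did (4 genes) and 829 had an unadjusted p under 0.05. The SEs of 1.13 to 1.78 leave room for differences of severalfold in either direction. Sc4mol was the one gene of the 7 with every ND IEL library above every ND LP library, as 9.95% of all genes were, and its log2 fold change was 0.64 ± 1.21 (limma adjusted p = 1). None was lower in every library, against 9.34% of all genes. The median of the 7 was -0.0045 with upper quartile scaling and 0.54 with the leukocyte scaling.

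In PA milk the IEL libraries were higher than the LP libraries on average for all 7 genes, with a median log2 fold change of 0.88 against -0.03. The PA milk libraries are those already used above, so this is the other side of the same values and not a separate line of evidence. None of the 7 passed limma, as 0.144% of all genes did (18 genes, with 1327 at an unadjusted p under 0.05). Sc4mol came to 4.99 ± 1.21 (limma unadjusted p = 0.000838, adjusted p = 0.169, and 0.0109 to 0.844 over the alternatives), and passed the threshold without PA milk LP replicate 3 (6.74, limma adjusted p = 0.0109). For PA milk LP that fit keeps only replicates 1 and 2, where Sc4mol was near the floor. Fdps came to 3.69 ± 1.18 (limma adjusted p = 0.353) and Insig1 to 2.92 ± 1.24 (limma adjusted p = 0.435). Without both sparse libraries they were 3.68, 1.27 and 0.61.

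Sqle (0.74), Cyp51 (0.88), Idi1 (0.62) and Hmgcs1 (0.29) had log2 differences smaller than their SEs. Insig1 was the one gene with every PA milk IEL library above every PA milk LP library, against 4.06% of all genes, with its lowest IEL value of 32.9 FPKM beside a highest LP value of 31.9. With the leukocyte scaling these groups overlapped. None of the 7 was lower in every IEL library, against 4.51% of all genes.

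In ND, some other genes of sterol transport had larger log2 fold changes between the layers than the 7 had. Abcg5 and Abcg8, the partners of an apical sterol exporter, were at 39.7 to 194 FPKM and 12.6 to 115 FPKM in ND IEL and at 0 to 13.7 and 0.0209 to 0.307 in ND LP. Their log2 fold changes were 4.80 ± 1.35 and 4.78 ± 1.32 (limma adjusted p = 0.308 and 0.297). Npc1l1, which takes up sterols in the gut, came to 4.42 ± 1.501 (limma adjusted p = 0.432) and Soat2, an esterifying enzyme, to 3.95 ± 1.74 (limma adjusted p = 0.680). These 4 are known for their place in enterocytes and hepatocytes, and the summed epithelial markers were 24115 to 93275 FPKM in ND IEL beside 2849 to 5903 in ND LP. The part of epithelial RNA in these differences was not tested.

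On the other side, Scarb1, an HDL receptor, was lower in ND IEL by a log2 fold change of -3.69 ± 1.27 (limma adjusted p = 0.443) and in PA milk IEL by -3.13 ± 1.27 (limma adjusted p = 0.424). Cyp7b1, an oxysterol hydroxylase, was listed at 0 in all 6 IEL libraries and reached 16.9 FPKM in LP, and it was also at 0 in PA milk LP replicate 2. Ch25h reached 34.6 FPKM in LP. In PA milk, Srebf1 (2.66 ± 1.13, limma adjusted p = 0.435) and Abcg5 (4.89 ± 1.35, limma adjusted p = 0.242) were higher in IEL than in LP, and Ch25h was lower (-3.12 ± 1.27, limma adjusted p = 0.427), with an unadjusted p under 0.05 each.

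The 7 genes did not vary as one over the libraries. Across the 12 libraries, which share the sparse replicates, Pearson's r of log2(FPKM + 1) was 0.97 for Cyp51 with Idi1, 0.91 for Fdps with Insig1, 0.87 for Fdps with Sc4mol and 0.79 for Hmgcs1 with Sqle. It was -0.35 for Sqle with Insig1, the lowest of the 21 pairs. These correlations were not computed without the sparse libraries, so they do not show sets of genes within the pathway. In PA milk IEL replicate 2, which enters them, Idi1, Cyp51 and Sqle were listed at 0. Fdps, Sc4mol and Insig1 were at 467, 204 and 185 FPKM there. In PA milk LP replicate 2 it was Hmgcs1 (40.5) and Sqle (55.2) that were high and the other 5 that lay between 0 and 0.264 FPKM. PA milk LP replicate 1 was different again, with Sqle at 0 and Sc4mol at 0.193 FPKM but Fdps and Insig1 at 29.9 and 31.9.

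Genes with the pattern most like the mean of the 7 were found by Pearson's r over the 12 libraries, with each gene centred, as a description. Mrps35 (a mitochondrial ribosomal protein gene) and Mad2l1 (a spindle checkpoint gene) led with r = 0.92, followed by Trappc5, Hint3, Dmxl1, Gm5547, Opa3, Psme2, Gbas and Grhpr, the last with r = 0.90. None of them belongs to the pathway lists. Mrps35 was at 78.6, 0 and 61.6 FPKM in PA milk IEL, at 100.1, 25.8 and 91.6 in ND IEL, at 0.181, 0 and 19.0 in PA milk LP and at 46.1, 39.8 and 39.2 in ND LP. It was at or near 0 in both sparse libraries and in PA milk LP replicate 1, which none of the 7 genes was in all 3.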

How the data were processed

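The authors sorted cells from 12 samples, made libraries with a SMART-Seq v4 kit and, per the labels, used TopHat2 2.1.1, Bowtie2 2.2.8.0, SAMtools 0.1.18, Cufflinks 2.2.1 and Cuffdiff 2.2.1 with mm10. The authors deposited FPKM values for 23284 genes, used here, and a table of rounded scaled counts, a signal divided by a size factor, used for depth (9376529 to 11710874 per library) and for reads worked out from its steps (90.8% to 98.0% of low values within 0.05 of a whole read). These are not raw counts, so no count model was used for the main result, and the recovered reads entered only an alternative fit with voom.

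Genes reaching 1 FPKM in 3 or more libraries (12502) were tested with limma 3.58.1 (R 4.3.3) on log2(FPKM + 1) with a trend, in 1 fit of 4 group means, with Benjamini-Hochberg adjustment at 0.05 over all genes. Fold changes are on the log2(value + 1) scale, which understates low genes. Scripts used Python 3.11.15, pandas 2.3.3, scipy 1.17.1 and matplotlib 3.10.9 and were tested on simulated data. Alternatives were a pseudocount of 0.1, 2 filters, 2 scalings, fewer samples, the replicate block, voom on reads and leaving out libraries. Counts of genes whose groups do not overlap were repeated without libraries and with both scalings, which was chosen after seeing the data.

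The members, lists and tests were chosen with earlier results of these data known. Named were the 7 genes, fixed neighbours (Srebf2 and Ch25h among them), list genes with an unadjusted p under 0.05 and the 10 genes most like the 7 in pattern. Genes counted as not overlapping were named after their values were seen. Some genes of the lists stay in the fits and counts and are not reported here.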

Additional observations from a re-analysis of the deposited data

Results flagged for a closer look

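Ggps1, which makes geranylgeranyl diphosphate from farnesyl diphosphate, went opposite ways in the layers. In IEL every PA milk library (19.1, 58.4 and 25.8 FPKM) was above every ND library (18.7, 14.6 and 13.6), and in LP every PA milk library (17.6, 0.126 and 21.3 FPKM) was below every ND library (29.8, 35.6 and 23.7). The difference of the effects was -2.91 ± 1.64 on the log2 scale (limma unadjusted p = 0.0954, adjusted p = 1). In IEL the lowest PA milk library exceeded the highest ND library by less than 1 FPKM, and with either other scaling the IEL groups overlapped. With the leukocyte scaling the LP groups overlapped too.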

How the results depend on the processing

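The number of genes past the limma threshold was 0 for PA milk against ND in IEL, in LP and for their difference in most settings. In LP it was 3 with the replicate block and 5 with voom on reads, and none of these was one of the 7 genes. With 1 library left out it ran from 0 to 1 in IEL (1 without PA IEL replicate 3) and from 0 to 8 in LP (8 without PA LP replicate 3, of which Sc4mol was 1, and 1 without ND LP replicate 1). For IEL against LP in ND the count of 4 became 1 with a pseudocount of 0.1, 0 with no filter, 2 with a filter of 6 libraries, 1 with upper quartile scaling, 92 with only the groups compared, 0 with the replicate block, 0 with voom, 113 without both sparse libraries, and 0 to 2 with 1 library left out. In PA milk the 18 became 3 with no filter, 9 with the leukocyte scaling, 9 with upper quartile scaling, 1 with only the groups compared, 5 with the replicate block, 314 without both sparse libraries, and 1 to 289 with 1 library left out (1 without PA LP replicate 1, 289 without PA LP replicate 2). The cause of these shifts was not tested.

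Of the fold changes of the 7 genes, these changed sign. For PA milk against ND in IEL, Fdps was -0.14 and -0.16 and Sc4mol -0.45 and -0.47 with the leukocyte and upper quartile scaling, and without both sparse libraries Sqle was 1.44, Fdps -0.25, Sc4mol -0.36 and Cyp51 0.038. With 1 library left out, Sqle ran from -2.09 to 1.44, Fdps from -0.25 to 0.90, Sc4mol from -0.41 to 0.83 and Cyp51 from -2.50 to 0.038. In LP, Insig1 was 0.25 without both sparse libraries and ran from -2.26 to 0.25. For the difference between the layers, Idi1 was 0.087 and Cyp51 0.31 with voom and Insig1 0.18 without both sparse libraries, and leaving out 1 library gave -1.12 to 0.84 for Hmgcs1, -2.29 to 0.62 for Idi1 and -2.43 to 0.39 for Cyp51. For IEL against LP in ND, Hmgcs1 was 0.28 and Idi1 0.41 with the leukocyte scaling and Cyp51 -0.0045 with upper quartile scaling, and leaving out 1 library gave -0.66 to 0.64 for Hmgcs1, -1.84 to 0.68 for Sqle, -0.10 to 0.54 for Fdps, -0.29 to 0.29 for Idi1 and -0.14 to 0.47 for Cyp51. In PA milk, Idi1 was -0.12 and Cyp51 -0.19 with voom, and leaving out 1 library gave -1.002 to 0.96 for Hmgcs1, -0.77 to 2.63 for Sqle, -0.66 to 2.25 for Idi1 and -0.29 to 2.53 for Cyp51.

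Samples with the same replicate number did not deviate together (correlations of -0.12 to 0.07), and the main fit did not pair them. Between IEL and LP of the same diet these correlations ran from -0.03 to 0.06. They cannot tell whether same-numbered IEL and LP libraries share mice. LP cells were prepared from the intestine left after the IEL step, and the main fit treats all libraries as independent. The replicate block moved no call of the 7 genes. The SEs of the 7 genes between groups, 1.13 to 1.78 on the log2 scale with 3 libraries a group, limit what could pass.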
